A study of Mus musculus with 6 samples.

Results

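The insulin and insulin-like growth factor (IGF) genes followed here are the ligand Igf1, the receptors Igf1r and Insr, the receptor adaptors Irs1 and Irs2, and the IGF-binding proteins Igfbp3, Igfbp4, Igfbp5, Igfbp6 and Igfbp7. These 10 genes were taken by their symbols from the 24421 genes listed in the count tables, and all 10 passed the filter on low counts that left 14180 genes for testing. The data are bulk RNA-Seq of GP (gastrocnemius/plantaris) muscle from mice that were 5 months old, 3 months after tamoxifen. By their labels, 3 libraries (Ctrl) are from Net39 fl/fl mice without Cre and 3 (cKO) from HSACreERT2;Net39 fl/fl mice, so both groups are described as carrying floxed alleles of Net39, a nuclear envelope protein of muscle, and as treated with tamoxifen. The labels give the strain background as B6C3F1, and per the methods the founders, made from B6C3F1 zygotes, were mated to C57BL/6N mice. The Cre is driven by the human skeletal actin promoter and is active in muscle fibers, so cells of the muscle other than fibers keep the gene. Each library is 1 mouse.

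Insulin and IGF1 bind closely related receptor tyrosine kinases, which phosphorylate the adaptors IRS1 and IRS2. The adaptors recruit PI3K and thereby activate AKT, which promotes protein synthesis through mTOR and keeps the FoxO factors, activators of muscle protein breakdown genes, out of the nucleus. IGF-binding proteins are secreted, hold IGFs in the fluid around cells and can limit or prolong their access to the receptor, and in muscle they are made by connective tissue and vessel cells as well as by fibers.

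The targeted gene went against the labels. Net39, listed as Ppapdc3, had 310, 321 and 217 counts in the Ctrl-labelled libraries and 5365, 4340 and 6080 in the cKO-labelled ones. Its level was 7.20 ± 1.10 CPM (counts scaled to library size, mean ± SD, n = 3) against 134 ± 19.7 CPM, a log2 fold change of 4.22 ± 0.17 (SE, edgeR adjusted p = 0.000161). The deleted first exon cannot be told from the rest of the gene in counts per gene. Whether tables and labels of the groups were exchanged cannot be told from these counts, and an exchange would turn every sign relative to genotype. Every direction below is therefore stated for the labelled groups, and a log2 fold change above 0 means higher in the cKO-labelled libraries. Total counts were 33860001 to 38201728 in the Ctrl-labelled libraries and 39191239 to 48839910 in the cKO-labelled ones. The members had from 416 counts (Igf1) to 47770 counts (Igfbp5) per library. CPM was scaled with TMM factors, which were 1.08 to 1.11 for the Ctrl-labelled libraries and 0.865 to 0.983 for the cKO-labelled ones. Without these factors the median over all genes of the log2 fold change moved from -0.02 to -0.27. All 8 muscle fiber markers (Acta1, Ckm, Des and others) passed the filter, with summed levels of 76488 to 81710 CPM in the Ctrl-labelled libraries and 92459 to 120901 CPM in the cKO-labelled ones.

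Among the members, Igfbp5 was higher in the cKO-labelled libraries, while Igfbp3, Irs1, Igfbp6 and Igfbp7 were lower. The other 5, among them both receptors, did not pass the test. Igfbp5, the member with the most reads, was 2.24-fold higher in the cKO-labelled libraries, and Igfbp3, the main carrier of IGFs in blood, was 2.47-fold lower. At an adjusted p under 0.05 (edgeR quasi-likelihood test with Benjamini-Hochberg adjustment over all genes tested), 5 of 10 members were called, against 24.4% of all genes. One direction at a time, 1 of 10 was higher in the cKO-labelled libraries (12.6% of all genes) and 4 of 10 were higher in the Ctrl-labelled ones (11.8% of all genes). With total counts the split over all genes moved from 1786 and 1668 to 673 and 4069, and 6 members were called. With a fold change over 2 as well, 2 of 10 were called (6.05% of all genes). With TMM factors, the 3 libraries of each label did not overlap for 6 of 10 members (43.9% of all genes). With total counts they did not overlap for 8 of 10, Igf1r and Insr added. The share of all genes was not computed with total counts, so the 8 cannot be set against it. The median log2 fold change of the members was -0.42, with 3 above 0 and 7 below. Leaving out cKO 3 lowered the number of members called to 3, while the number of all genes called fell from 3454 to 1560. In whole muscle, fewer cells of a type and less RNA per cell cannot be told apart.

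**Figure D1:**
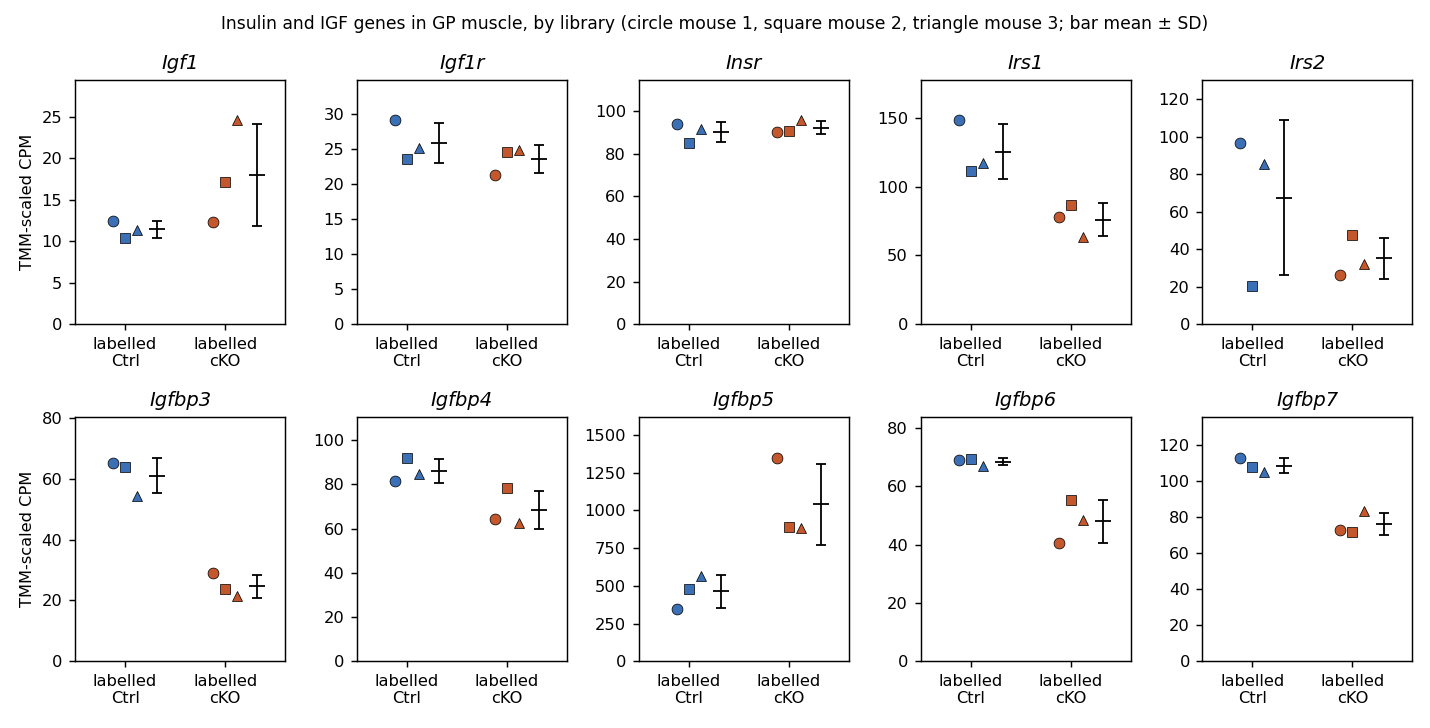
Levels of the 10 insulin and IGF genes in TMM-scaled CPM (y axis, from 0, 1 panel a gene) in the 3 Ctrl-labelled libraries (blue) and the 3 labelled cKO (orange); each symbol is 1 mouse and the bar at its right is the mean ± SD. The labelled groups do not overlap for Irs1, Igfbp3, Igfbp4, Igfbp5, Igfbp6 and Igfbp7, and Irs2 of Ctrl 2 lies far below the other Ctrl-labelled libraries.

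Igfbp5 and Igfbp3, the binding proteins with the largest changes among the members, were called in opposite directions. Their promoters are shown first, followed by those of the 2 adaptors. Each is the 250 bases before the RefSeq start on GRCm38.p6, 5′ to 3′ on the strand of the gene, which is minus for all 4. The positions are chr1:72874866-72875115 for Igfbp5, chr11:7213924-7214173 for Igfbp3, chr1:82291440-82291689 for Irs1 and chr8:11008930-11009179 for Irs2. Capitals mark matches to a TATA box (TATAAA), a GC box (GGGCGG), a FoxO core (GTAAACA) or an E-box (CACGTG), searched on both strands. The E-box was added to the search after the letters were seen.
Igfbp5: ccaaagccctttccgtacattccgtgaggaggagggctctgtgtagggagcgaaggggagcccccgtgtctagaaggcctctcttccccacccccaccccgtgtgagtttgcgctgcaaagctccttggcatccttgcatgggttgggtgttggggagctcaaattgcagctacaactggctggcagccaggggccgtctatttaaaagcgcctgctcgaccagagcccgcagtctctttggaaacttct
Igfbp3: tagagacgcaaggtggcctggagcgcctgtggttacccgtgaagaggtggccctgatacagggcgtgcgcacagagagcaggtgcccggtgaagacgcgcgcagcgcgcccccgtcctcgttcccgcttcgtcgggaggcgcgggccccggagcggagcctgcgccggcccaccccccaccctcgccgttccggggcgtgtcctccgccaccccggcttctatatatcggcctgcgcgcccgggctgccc
Irs1: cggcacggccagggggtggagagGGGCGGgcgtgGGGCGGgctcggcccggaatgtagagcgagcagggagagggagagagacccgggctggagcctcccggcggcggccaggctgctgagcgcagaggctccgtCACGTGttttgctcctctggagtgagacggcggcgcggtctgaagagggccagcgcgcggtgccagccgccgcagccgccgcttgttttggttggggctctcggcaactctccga
Irs2: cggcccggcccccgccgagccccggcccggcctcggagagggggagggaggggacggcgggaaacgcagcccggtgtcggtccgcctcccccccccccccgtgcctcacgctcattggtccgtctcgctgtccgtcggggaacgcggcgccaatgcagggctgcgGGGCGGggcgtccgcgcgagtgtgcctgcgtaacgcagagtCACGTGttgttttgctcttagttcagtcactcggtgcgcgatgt

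RefSeq held promoters for 9 of the 10 members, Insr being the exception. The Igfbp5 and Igfbp3 windows held no exact match to any of the 4 motifs. Variant forms, such as other TATA-like stretches, were not searched. Igfbp3 had a GC content of 73.2% and a CpG ratio (observed over expected) of 0.958, and Igfbp5 had 58.8% and 0.463, against medians of 52.4% and 0.373 over 32851 promoters. Irs1 and Irs2 each held an E-box, at position -115 and -44 from the start, and each held GC boxes, 2 in Irs1 with the first at -227 and 1 in Irs2 at -85. E-boxes stood in 2 of the 9 member promoters and in 6.02% of all promoters. GC boxes stood in 4 of the 9 (Igf1r, Irs1, Irs2 and Igfbp7) and in 32.7% of all. TATA boxes stood in 2 of the 9 (Igfbp4 at -28, and Igfbp6 at -148 on the other strand) and in 12.4% of all. The FoxO core stood in 0 of the 9 and in 3.17% of all.

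Igf1, the growth factor that drives muscle growth and repair (plus strand of chromosome 10, 87858265 to 87937042, GRCm38), had 12.5, 10.4 and 11.4 CPM in the Ctrl-labelled libraries and 12.3, 17.1 and 24.6 CPM in the cKO-labelled ones. The library cKO 1 lay within the range of the Ctrl-labelled ones, so the groups overlapped, and the spread was wider among the cKO-labelled libraries (coefficient of variation 34.4%) than among those labelled Ctrl (8.82%). The log2 fold change was 0.66 ± 0.23 (SE, 95% interval 0.11 to 1.21, edgeR adjusted p = 0.0823) and did not pass the threshold. It passed with DESeq2 (adjusted p = 0.0284) and in edgeR without cKO 1 (log2 fold change 0.86, adjusted p = 0.0331). With total counts the log2 fold change was 0.41 (edgeR adjusted p = 0.230), and without cKO 3 it was 0.35 (edgeR adjusted p = 0.219).

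Neither receptor passed the test. Insr, the insulin receptor (minus strand of chromosome 8, 3122061 to 3279617), had 94.0, 85.2 and 91.8 CPM in the Ctrl-labelled libraries and 90.1, 91.0 and 95.7 CPM in the cKO-labelled ones. The groups overlapped, and the log2 fold change was 0.03 ± 0.07 (SE, 95% interval -0.14 to 0.20, edgeR adjusted p = 0.784). Its sign turned with total counts, at -0.22 (edgeR adjusted p = 0.0850). Igf1r, the IGF1 receptor (plus strand of chromosome 7, 67952827 to 68233668), had 29.1, 23.5 and 25.1 CPM in the Ctrl-labelled libraries and 21.3, 24.6 and 24.9 CPM in the cKO-labelled ones. These ranges overlapped too, with a log2 fold change of -0.13 ± 0.11 (SE, 95% interval -0.39 to 0.12, edgeR adjusted p = 0.399). With total counts it was -0.39 (edgeR adjusted p = 0.0636), and neither receptor then overlapped between the labels. The ratio of Igf1r to Insr counts, which needs no scaling, was 0.309, 0.276 and 0.273 in the Ctrl-labelled libraries and 0.236, 0.270 and 0.260 in the cKO-labelled ones. The ratios did not overlap, with a log2 difference of -0.16 and an exact two-sided permutation p of 0.1, the smallest that 3 against 3 can give (0.2 adjusted over the 2 ratios tested).

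Of the adaptors, Irs1 was lower in the cKO-labelled libraries and Irs2 varied too much between mice for a call. Irs1, which links both receptors to PI3K (minus strand of chromosome 1, 82233101 to 82291416), had 148, 111 and 117 CPM in the Ctrl-labelled libraries and 77.8, 87.0 and 63.7 CPM in the cKO-labelled ones. All 3 cKO-labelled libraries lay below all 3 labelled Ctrl. The log2 fold change was -0.72 ± 0.15 (SE, 95% interval -1.08 to -0.37, edgeR adjusted p = 0.0163), and the adjusted p was 0.0534 without cKO 1 and 0.0527 without cKO 3. On the opposite strand, the annotated gene Gm9747 shares 2822 bases, or 30.9%, of the Irs1 exon bases. Gm9747 is not among the genes listed in the count tables, so its own counts could not be checked. Since the use of strand in counting is not given in the sources used here, any reads of Gm9747 cannot be told from those of Irs1.

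Irs2 (minus strand of chromosome 8, 10984681 to 11008458), the adaptor whose transcription FoxO factors raise during fasting, had 96.5, 20.1 and 85.7 CPM in the Ctrl-labelled libraries and 26.2, 47.4 and 32.2 CPM in the cKO-labelled ones. The lowest of all 6 values and the 2 highest were in Ctrl-labelled libraries, whose highest was 4.81 times their lowest. The log2 fold change was -0.93 ± 0.53 (SE, 95% interval -2.17 to 0.30, edgeR adjusted p = 0.233). Without Ctrl 2 it was -1.37, with an edgeR adjusted p of 0.0244. The gene 9530052E02Rik on the other strand shares 162 of the Irs2 exon bases (2.56%) and had 6 to 16 counts per library. The ratio of Irs1 to Irs2 counts was 1.54, 5.54 and 1.37 in the Ctrl-labelled libraries and 2.97, 1.84 and 1.98 in the cKO-labelled ones. These overlapped, with a log2 difference of -0.04 (exact two-sided permutation p = 1), which was 0.61 without Ctrl 2, 0.10 without cKO 2 and 0.04 without cKO 3.

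Igfbp5, a binding protein that also attaches to extracellular matrix and is made by muscle cells as they differentiate (minus strand of chromosome 1, 72857932 to 72874884), had 348, 478 and 565 CPM in the Ctrl-labelled libraries and 1348, 890.4 and 882 CPM in the cKO-labelled ones. Every cKO-labelled library was above every Ctrl-labelled library, and cKO 1 was the highest. The means were 464 ± 109 and 1040.0 ± 267 CPM (SD, n = 3), and the log2 fold change was 1.17 ± 0.23 (SE, 95% interval 0.62 to 1.71, edgeR adjusted p = 0.0137). That value was at percentile 98.1 of all genes tested.

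The other 4 binding proteins were each lower in all 3 cKO-labelled libraries than in any labelled Ctrl. Igfbp3 (minus strand of chromosome 11, 7206086 to 7213923), which carries most IGF in the circulation together with the acid-labile subunit Igfals, had 65.0, 63.7 and 54.4 CPM in the Ctrl-labelled libraries and 28.9, 23.6 and 21.5 CPM in the cKO-labelled ones. The log2 fold change was -1.31 ± 0.13 (SE, 95% interval -1.61 to -1.01, edgeR adjusted p = 0.00194), at percentile 3.03 of all genes tested. Igfbp7 (minus strand of chromosome 5, 77349240 to 77408041), which binds IGFs only weakly and is made by vessel cells, had 113, 108 and 105 CPM in the Ctrl-labelled libraries and 73.2, 72.0 and 83.4 CPM in the cKO-labelled ones. Its log2 fold change was -0.51 ± 0.08 (SE, 95% interval -0.71 to -0.32, edgeR adjusted p = 0.00753). The gene Polr2b on the other strand shares 85 bases (7.03%) of the Igfbp7 exons and had a log2 fold change of 0.17 (edgeR adjusted p = 0.106). Igfbp3 and Igfbp7 kept an adjusted p under 0.05 in every alternative fit, each library left out included.

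Igfbp6 (plus strand of chromosome 15, 102144362 to 102149511), which prefers IGF2 over IGF1, had 69.1, 69.2 and 66.9 CPM in the Ctrl-labelled libraries, the narrowest spread of the members in that group, and 40.5, 55.1 and 48.5 CPM in the cKO-labelled ones. The log2 fold change was -0.51 ± 0.11 (SE, 95% interval -0.78 to -0.24, edgeR adjusted p = 0.0198). The adjusted p was 0.0670 without Ctrl 1, 0.0629 without Ctrl 2 and 0.0638 without cKO 3. Igfbp4 (plus strand of chromosome 11, 99041244 to 99054392), an inhibitory binding protein that the protease Pappa cleaves, had 81.7, 92.0 and 84.5 CPM in the Ctrl-labelled libraries and 64.5, 78.3 and 62.7 CPM in the cKO-labelled ones. Although the groups did not overlap, its log2 fold change of -0.33 ± 0.10 (SE, 95% interval -0.58 to -0.08) missed the threshold (edgeR adjusted p = 0.0592). It passed with DESeq2 (adjusted p = 0.0400), with total counts in edgeR (log2 fold change -0.58, adjusted p = 0.0185) and without cKO 2 (log2 fold change -0.45, edgeR adjusted p = 0.0146).

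**Figure D2:**
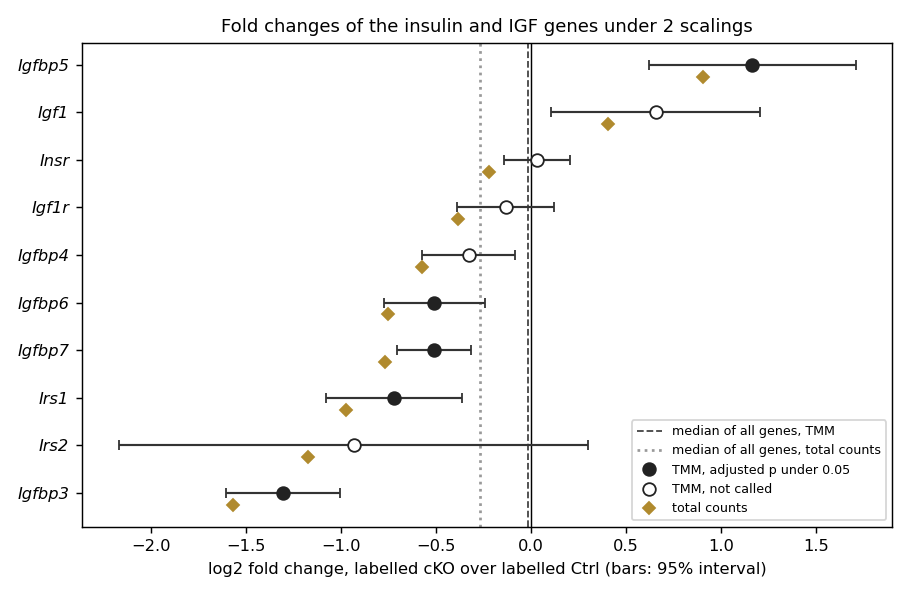
Log2 fold changes of the 10 genes, labelled cKO over labelled Ctrl (x axis), with 95% intervals, from TMM-scaled counts (circles, filled where the adjusted p is under 0.05) and from total counts (diamonds). Vertical lines mark 0 and the median of all genes under each scaling (-0.02 and -0.27). The total-count values all lie to the left of the TMM values.

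Another scaling shifts all genes by nearly the same amount, so subtracting the median of all genes removes it by construction, and the values relative to that median are no check on the scaling. Igfbp5 lay 1.18 above that median with TMM factors and 1.17 above it with total counts. Igfbp3 lay at -1.29 and -1.30 relative to it, Irs1 at -0.71 and -0.70, Igfbp6 at -0.49 and -0.49, and Igfbp7 at -0.50 and -0.50.

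Per length, as TMM-scaled CPM per kilobase of exon, Igf1 and Igf1r were the lowest members under both labels, and Igfbp5, Igfbp6 and Igfbp7 were the highest. In the Ctrl-labelled libraries, the order was Igfbp7 (89.9 ± 3.28, SD, n = 3), Igfbp5 (77.2 ± 18.2) and Igfbp6 (61.5 ± 1.17), then Igfbp3 (19.5 ± 1.86) and Igfbp4 (19.5 ± 1.21), then Irs1 (13.7 ± 2.19), Irs2 (10.7 ± 6.54) and Insr (6.57 ± 0.33), then Igf1r (1.54 ± 0.17) and last Igf1 (1.15 ± 0.10). Neighbours overlapped between mice within the first 3, between Igfbp3 and Igfbp4, and from Irs1 to Insr, while the other neighbours stood apart. In the cKO-labelled libraries, the order was Igfbp5 (173 ± 44.4), Igfbp7 (63.0 ± 5.17), Igfbp6 (43.2 ± 6.60), Igfbp4 (15.5 ± 1.94), Irs1 (8.33 ± 1.28), Igfbp3 (7.88 ± 1.21), Insr (6.71 ± 0.22), Irs2 (5.58 ± 1.73), Igf1 (1.82 ± 0.62) and Igf1r (1.40 ± 0.12). There Igfbp5, Igfbp7, Igfbp6 and Igfbp4 stood apart from each other, neighbours from Irs1 to Irs2 overlapped, and so did Igf1 and Igf1r. Igfbp5 thus overlapped Igfbp7 in the Ctrl-labelled libraries and stood above it in each cKO-labelled library.

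The make-up of the binding protein transcripts therefore differed between the labels. Igfbp5 made up 22.9%, 29.3% and 33.9% of the summed reads per kilobase of the 5 binding proteins in the Ctrl-labelled libraries and 65.0%, 52.4% and 52.3% in the cKO-labelled ones, a difference in means of 27.9 percentage points. Igfbp7 went from 33.7 ± 2.94% (SD, n = 3) in the Ctrl-labelled libraries to 21.1 ± 3.53% in the cKO-labelled ones, Igfbp6 from 23.0 ± 1.46% to 14.5 ± 3.60%, Igfbp3 from 7.32 ± 0.99% to 2.60 ± 0.13% and Igfbp4 from 7.29 ± 0.38% to 5.19 ± 1.03%. None of the 5 shares overlapped between the labels. Shares add to a fixed total, so a higher share of Igfbp5 lowers the others, and these values are given without a test.

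**Figure D3:**
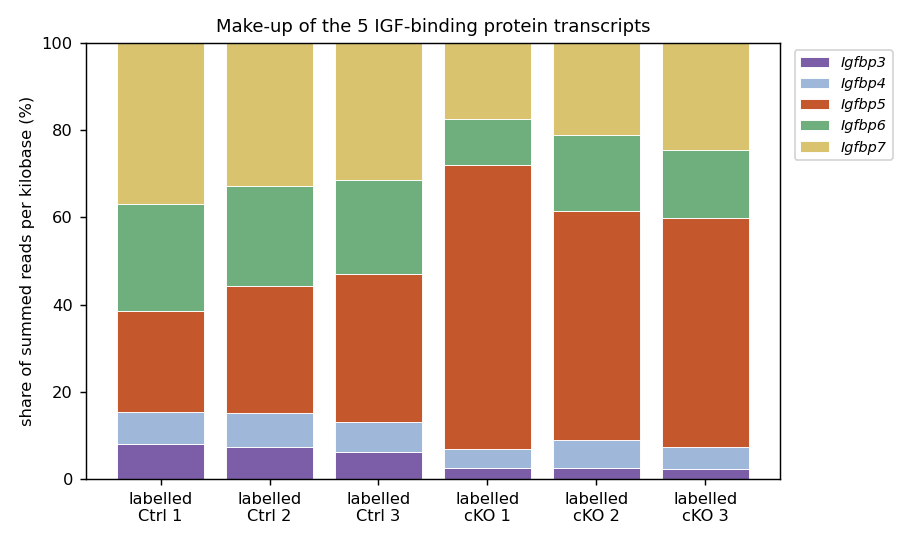
Share of each IGF-binding protein gene (y axis, percent of their summed reads per kilobase of exon) in each of the 6 libraries (x axis); each bar adds up to all 5 genes. Igfbp5 takes 22.9% to 33.9% in the Ctrl-labelled libraries and 52.3% to 65.0% in the cKO-labelled ones.

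The sum of the 5 binding proteins was 253 to 278 CPM per kilobase in the Ctrl-labelled libraries and 281 to 345 in the cKO-labelled ones. Without Igfbp5 it was 184 to 195 and 121 to 134. Neither sum overlapped between the labels with TMM factors (exact two-sided permutation p = 0.1 for each). With total counts, an alternative chosen after seeing the data, the sum of all 5 overlapped and its direction turned, at 281 to 300.02 in the Ctrl-labelled libraries and 253 to 299 in the cKO-labelled ones (exact two-sided permutation p = 0.3). Without Igfbp5 it was then 198 to 217 and 104 to 132, still apart. On the same scale, Igf1 transcripts per 100 binding protein transcripts were 0.498, 0.387 and 0.413 in the Ctrl-labelled libraries and 0.360, 0.611 and 0.885 in the cKO-labelled ones, which overlapped (exact two-sided permutation p = 0.4).

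Igfbp3 and Igfbp5 each have a binding protein gene as close neighbour. Igfbp3 lies 3539 bases from Igfbp1 and Igfbp5 lies 5457 bases from Igfbp2, in each case on opposite strands. Igfbp2, a binding protein abundant in developing tissues, had 30, 24 and 29 counts in the Ctrl-labelled libraries and 0, 3 and 0 in the cKO-labelled ones. Scaled to library size, the ratio of the summed counts was 27.9 (95% counting interval 9.21 to 138), higher in the Ctrl-labelled libraries. The cKO-labelled counts of Igfbp2 are too low for a precise ratio. Igfbp1 had at most 1 count in any library.

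Other genes of the pathway were followed in 10 lists by role. Besides the members, 71 of 78 listed genes were tested, of which 13 were higher in the cKO-labelled libraries and 10 were higher in the Ctrl-labelled ones, 32.4% in all (24.4% of all genes), with a median log2 fold change of 0.04. Without the TMM factors the split was 4 and 22. Over all genes tested, with TMM factors, 12.6% were higher in the cKO-labelled libraries and 11.8% were higher in the Ctrl-labelled ones. The counts of each list below stand beside these shares. Left without a test were Ins1, Ins2, Insrr, Igfbp1, Igfbpl1, Pappa2 and Irs4, each with at most 21 counts in any library.

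Among the ligands and receptors, members included, 1 of 2 and 1 of 3 genes were called, both higher in the Ctrl-labelled libraries. Igf2, the growth factor of fetal tissue, had 33.6, 32.4 and 33.7 CPM in the Ctrl-labelled libraries and 27.6, 22.6 and 21.5 CPM in the cKO-labelled ones (log2 fold change -0.47 ± 0.11, SE, edgeR adjusted p = 0.0194). Igf2r, which clears IGF2 and carries lysosomal enzymes, was lower in the cKO-labelled libraries as well (log2 fold change -0.39 ± 0.09, SE, edgeR adjusted p = 0.0189). Of 7 binding proteins tested, 2 were higher in the cKO-labelled libraries and 4 were higher in the Ctrl-labelled ones. The 4 include Igfbp2, which passed the filter on low counts through its Ctrl-labelled libraries alone. Igfals, the acid-labile subunit that stabilises the circulating complex of IGF and Igfbp3, had 33, 43 and 70 counts in the Ctrl-labelled libraries and 205, 112 and 164 in the cKO-labelled ones (log2 fold change 1.71 ± 0.38, SE, edgeR adjusted p = 0.0189). The direction of Igfals was opposite to that of its partner Igfbp3. These calls were lost for Igf2 without Ctrl 1, Ctrl 2 or cKO 3 (edgeR adjusted p up to 0.0680), for Igf2r without Ctrl 2 or cKO 3 (up to 0.0650) and for Igfals without Ctrl 1, Ctrl 2 or cKO 1 (up to 0.0673). Of the proteases that cleave binding proteins and their inhibitors, 0 of 4 passed in either direction.

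In the receptor adaptor list, 2 of 9 genes were higher in the cKO-labelled libraries and 2 were higher in the Ctrl-labelled ones (0 and 3 with total counts). The small changes were in Sos1, an exchange factor for RAS (log2 fold change 0.30), Sh2b1, which enhances insulin receptor signaling (0.39), and Shc1, which couples receptors to RAS (-0.28), beside Irs1. Of 9 inhibitors of receptor signaling, 1 passed in each direction (0 higher in the cKO-labelled libraries and 5 lower with total counts). Grb14, which binds the insulin receptor and blocks its kinase, had 52.3, 56.7 and 61.0 CPM in the Ctrl-labelled libraries and 17.4, 35.1 and 21.1 CPM in the cKO-labelled ones (log2 fold change -1.21 ± 0.24, SE, edgeR adjusted p = 0.0140). Socs2, which restrains growth hormone signaling, had 7.84, 7.36 and 5.88 CPM in the Ctrl-labelled libraries and 15.5, 8.13 and 20.9 CPM in the cKO-labelled ones (log2 fold change 1.08 ± 0.32, SE, edgeR adjusted p = 0.0469). Grb14 kept its call unless cKO 3 was left out (edgeR adjusted p = 0.0532), while Socs2 kept it only where cKO 2 was left out (edgeR adjusted p up to 0.141). Sh2b1 and Shc1 likewise kept theirs only without cKO 2 (up to 0.104 and 0.124), and Sos1 lost it without Ctrl 1, Ctrl 2, cKO 1 or cKO 3 (up to 0.0700).

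Further down the pathway, the PI3K and AKT list had 1 of 16 genes called in each direction (0 higher in the cKO-labelled libraries and 5 lower with total counts). Inppl1, the lipid phosphatase SHIP2 that opposes PI3K, was at 331 ± 22.4 CPM (SD, n = 3) in the Ctrl-labelled libraries and 208 ± 8.38 CPM in the cKO-labelled ones (log2 fold change -0.67 ± 0.09, SE, edgeR adjusted p = 0.00391). Pik3cd, a catalytic PI3K subunit best known from leukocytes, was higher in the cKO-labelled libraries (log2 fold change 0.64 ± 0.16, SE, edgeR adjusted p = 0.0274). Of 14 genes of the mTOR branch, 6 were higher in the cKO-labelled libraries and 1 was higher in the Ctrl-labelled ones. With total counts this became 2 and 3. Among the 6, Rps6kb1, the S6 kinase, had a log2 fold change of 0.45, Rictor, the scaffold of mTORC2, 0.89, Deptor, an inhibitor of mTOR, 0.83, and Akt1s1, an inhibitor of mTORC1, 0.35. With total counts Rps6kb1, Rictor and Akt1s1 no longer passed. Without Ctrl 1 or Ctrl 2 the calls of Pik3cd, Rictor and Akt1s1 were lost, and without cKO 1 or cKO 3 those of Pik3cd and Akt1s1 (edgeR adjusted p up to 0.0962 for Pik3cd, 0.0639 for Rictor and 0.0712 for Akt1s1).

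FoxO factors and their target genes in muscle moved in both directions, with 3 of 12 called each way (2 higher in the cKO-labelled libraries and 4 lower with total counts). The 3 called higher in the cKO-labelled libraries include a gene that is also counted in the mTOR branch. Foxo4 was at 147 ± 7.86 CPM (SD, n = 3) in the Ctrl-labelled libraries and 256 ± 14.1 CPM in the cKO-labelled ones (log2 fold change 0.80 ± 0.08, SE, edgeR adjusted p = 0.00238). Trim63, the muscle ubiquitin ligase MuRF1, had 242, 190.2 and 325 CPM in the Ctrl-labelled libraries and 706, 336 and 526 CPM in the cKO-labelled ones (log2 fold change 1.05 ± 0.29, SE, edgeR adjusted p = 0.0399). The autophagy gene Gabarapl1 had 252, 165 and 207 CPM in the Ctrl-labelled libraries and 50.5, 71.5 and 48.2 CPM in the cKO-labelled ones (log2 fold change -1.87 ± 0.21, SE, edgeR adjusted p = 0.00272). Bnip3, a mitophagy receptor, and Ctsl, a lysosomal protease, were lower in the cKO-labelled libraries as well, at log2 fold changes of -0.59 and -0.37. Trim63 and Ctsl lost their calls without Ctrl 1, Ctrl 2, cKO 1 or cKO 3 (edgeR adjusted p up to 0.119 and 0.0578), and Bnip3 without cKO 3 (0.0675). The list for insulin-responsive glucose uptake had 0 of 6 genes called. Of the 20 pathway genes named here besides the members, 6 kept their call whichever library was left out (Inppl1, Rps6kb1, Deptor, Foxo4, Gabarapl1 and Igfbp2). Igfbp2, with 0, 3 and 0 counts in the cKO-labelled libraries, passed the low-count filter through its Ctrl-labelled ones alone. Its kept call therefore adds no support. With total counts, 8 of the 20 lost their call (Sos1, Sh2b1, Socs2, Pik3cd, Rps6kb1, Rictor, Akt1s1 and Trim63).

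**Figure D4:**
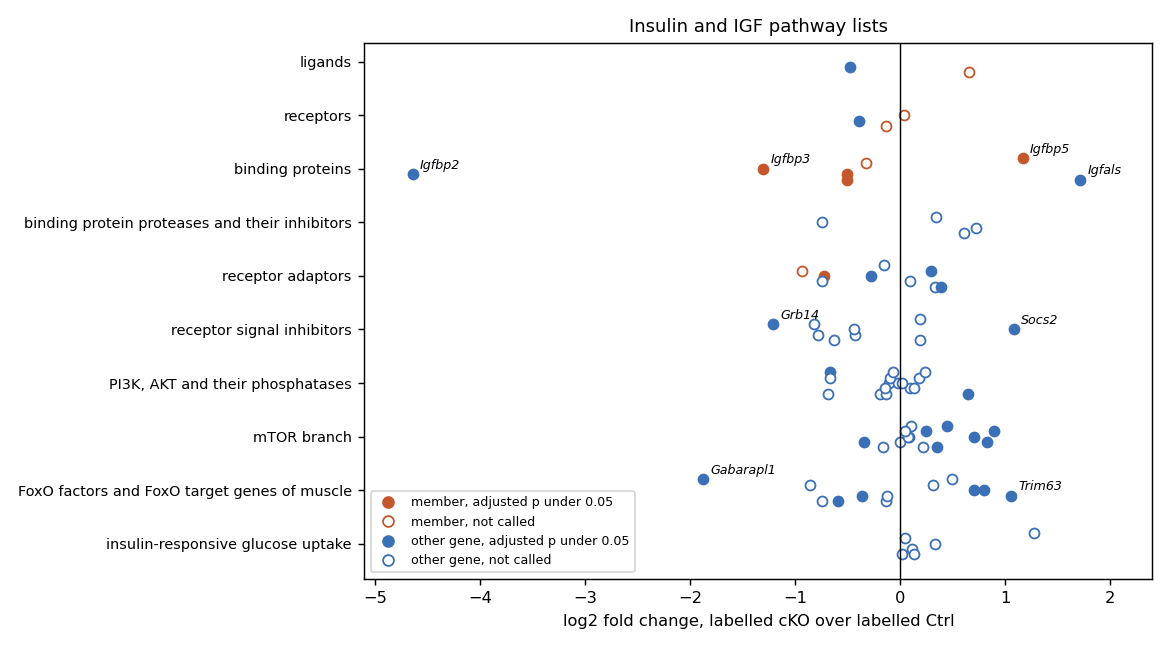
Log2 fold changes (x axis), labelled cKO over labelled Ctrl, of the genes tested in 10 insulin and IGF pathway lists (y axis); orange marks the members, blue the other genes, and filled symbols those with an adjusted p under 0.05. With TMM scaling, called genes lie on both sides of 0 in the lists of binding proteins, adaptors, inhibitors, PI3K and AKT, mTOR and FoxO (with total counts, those of adaptors, inhibitors and PI3K and AKT lie only below 0), and names mark those with a fold change over 2; Igfbp2 lies farthest to the left.

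By their levels over the 6 libraries, the genes most like Igfbp5 were Ttyh2, Myo5c and Anapc5, with root mean square distances of 0.0779, 0.111 and 0.113 in centred log2 CPM. The nearest to Igfbp3 were Micall1, Ccdc163 and Rttn, at 0.0962, 0.1098 and 0.118.

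Markers of the cell types that a muscle holds were also called in both directions. Over all genes tested, 12.6% were called higher in the cKO-labelled libraries and 11.8% were called higher in the Ctrl-labelled ones. Of 8 muscle fiber markers, 5 were higher in the cKO-labelled libraries (median log2 fold change 0.58). Of 8 slow fiber markers, 3 were higher in the Ctrl-labelled libraries, with summed levels of 8478 to 14593 CPM there and 446 to 3872 CPM in the cKO-labelled ones. Fibro-adipogenic progenitor markers, which mark a connective tissue cell, had 5 of 11 called higher in the Ctrl-labelled libraries, with sums of 2943 to 2996 and 2070 to 2983 CPM. Macrophage markers had 6 of 8 called in that direction, with sums of 111 to 133 and 59.3 to 81.1 CPM. Of endothelial markers, 0 of 8 passed, with sums of 512 to 560.3 CPM in the Ctrl-labelled libraries and 483 to 492 CPM in the cKO-labelled ones. Among mural cell markers, 1 of 8 was higher in the cKO-labelled libraries and 2 were higher in the Ctrl-labelled ones, and 1 of 6 satellite cell markers was higher in the cKO-labelled libraries. Of the tendon, Schwann cell and adipocyte markers, 0 of 6 passed in each list, at median log2 fold changes of 0.52, -0.59 and 0.04, the last turning to -0.19 with total counts. With total counts, 2 markers over all lists were higher in the cKO-labelled libraries and 35 in the Ctrl-labelled ones, against 7 and 16 with TMM factors. The Ctrl-labelled libraries were then higher for 6 slow fiber, 7 progenitor, 3 endothelial, 6 mural, 8 macrophage and 5 Schwann cell markers, and the cKO-labelled ones for 2 muscle fiber markers. No marker of any list was at 0 throughout. The part of these cell types in the values of Igfbp3, Igfbp6, Igfbp7 and Irs1 was not tested.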

How the data were processed

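Bulk RNA-Seq counts of GP muscle from 3 mice labelled Ctrl and 3 labelled cKO were analysed. The authors deposited raw counts per gene, 1 table per library. Per the labels and methods, reads were checked with FastQC 0.11.8, trimmed with Trimmomatic 0.39, aligned to mm10 with HISAT2 2.1.0 and counted with featureCounts 1.6.2. The annotation and the strand setting are not given in the sources used here. Multi-gene reads are therefore uncertain where exons overlap. The spread between mice was larger than counting error (chi-square per degree of freedom 29.7 to 102), so no library repeats another.

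Groups came from the sample labels. The test was that of edgeR 4.0.16 under R 4.3.3 (TMM, filterByExpr, glmQLFit, glmQLFTest, Benjamini-Hochberg over 14180 genes), and DESeq2 1.42.0 was an alternative. Standard errors came from the F statistic. Positions and exon lengths came from GENCODE M21 on GRCm38 (95.7% of symbols matched), promoters from RefSeq. Exact permutation tests of 3 against 3 cannot go below p = 0.1. Intervals of count ratios cover counting error only.

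The members and lists were chosen with earlier results of these data known. All members are named, with, per pathway list, up to 4 genes of smallest p at an adjusted p under 0.05 whose groups do not overlap and any with a fold change over 2, and the 3 genes nearest in pattern (mean CPM of at least 1, pseudocount 0.1 CPM) to the called member of smallest p in each direction. On simulated counts with 200 genes changed by 1.5 on the log2 scale (14042 genes tested), edgeR recovered 190 and called 18 others, and DESeq2 recovered 196 and called 56 others. The alternatives changed the scaling (DESeq2's size factors or total counts), the low-count filter (none, or a minimum of 10 counts in each library), the tool (a robust edgeR fit or DESeq2), the fold change limit, the design (mouse numbers as a block) and the libraries (each left out in turn).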

Additional observations from a re-analysis of the deposited data

How the results depend on the processing

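Igfbp3 and Igfbp7 kept their direction and an adjusted p under 0.05 in every alternative fit, at -1.57 to -1.23 and -0.77 to -0.48 on the log2 scale. With libraries left out in turn, the number of members called ranged from 3 to 6, and with a fold change limit it was 2. With libraries left out, log2 fold changes ranged from 0.35 to 0.86 for Igf1, -0.20 to -0.042 for Igf1r, -0.011 to 0.062 for Insr, -0.85 to -0.58 for Irs1, -1.37 to -0.58 for Irs2, -0.45 to -0.28 for Igfbp4 and -0.64 to -0.41 for Igfbp6, and the log2 ratio of Irs1 to Irs2 from -0.40 to 0.61. The sign of Insr turned without Ctrl 2 (-0.0076) or cKO 3 (-0.011) and with total counts (-0.22), and that of the ratio of Irs1 to Irs2 turned without Ctrl 2 (0.61), cKO 2 (0.097) or cKO 3 (0.044). Calls were gained with DESeq2 by Igf1 (0.66) and Igfbp4 (-0.32) and with total counts by Igfbp4 (-0.58). Without TMM factors (total counts), 673 genes were higher in the cKO-labelled libraries and 4069 were higher in the Ctrl-labelled ones (1786 and 1668 with TMM). The same split was 4 and 22 for other pathway genes (13 and 10 with TMM) and 2 and 35 for markers (7 and 16 with TMM). DESeq2 called 25 markers higher in the Ctrl-labelled libraries. Leaving out a library gave 1560 to 3585 genes called, 766 to 1777 higher in the cKO-labelled libraries and 788 to 1808 higher in the Ctrl-labelled ones. The total was 1575 without Ctrl 1, 1820 without Ctrl 2, 1789 without cKO 1 and 1560 without cKO 3, against 3454 with all 6. It was 3232 without Ctrl 3 and 3585 without cKO 2. Other pathway genes then gave 3 to 15 and 3 to 12, and markers 1 to 8 and 5 to 24. Leaving out a library leaves fewer samples, the same number whichever library it is, and other causes of these changes were not tested. Of the 20 named pathway genes, 14 lost their call without at least 1 library, 8 with total counts, 7 with the block and 0 with DESeq2's test. Shc1 also lost it with DESeq2's size factors and with no filter, and Socs2 and Trim63 in the robust fit. Igfbp2 gave no value with at least 10 counts in every library. With total counts, an alternative added after seeing the data, the difference between labels in the sum of the 5 binding proteins turned from 35.2 to -15.8 CPM per kilobase, and without Igfbp5 it went from -60.7 to -89.1.

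The mouse numbers do not pair the samples. The correlations of deviations between same-numbered mice were 0.0835, -0.215 and -0.00201, and not every sample correlated best with its own number. With the mouse number as a block, 1899 genes were called, 927 higher in the cKO-labelled libraries and 972 higher in the Ctrl-labelled ones. Other pathway genes gave 8 and 6, markers 1 and 13, and members 4, with Igfbp5 at 1.16 (edgeR adjusted p = 0.0531). Irs2 (SE 0.53) had the least precise log2 fold change of the members. Igfbp2 (0 to 30 per library) and Igfals (33 to 205) had fewer counts than any member. What limits the precision of these genes was not tested.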
